A study of Mus musculus with 12 samples.

Results

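The plakins are very large cytoplasmic proteins that tie the cytoskeleton to adhesions, and 7 plakin genes were followed here: Dsp, Plec, Dst, Macf1, Evpl, Ppl and Eppk1. Each was found by its symbol among the 54532 genes of the count table, each symbol matched 1 entry, and all 7 were among the 13571 genes with enough counts to be tested. They were measured in 12 messenger RNA libraries of cultured mouse keratinocytes that carried the labelled genotype WT DP-BirA(1-584), in which residues 1 to 584 of desmoplakin, the product of Dsp, are joined to the biotin ligase BirA. Every culture, controls included, received calcium, doxycycline at 2 µg/mL to switch the fusion on, and biotin for 16 h. Translating material from sucrose gradients was passed over neutravidin, which holds biotin, so that the retained RNA is the cortical fraction and the depleted remainder is called total. Cultures were scratch wounded or left unwounded, which gave 3 libraries in each of 4 groups, the total and the cortical fraction of unwounded cells and the same pair from wounded cells. The fusion is the bait in every group, no library came from cells without it, and the labels did not name the cell line or say whether libraries of 1 number shared a dish.

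Plakins share a folded plakin domain or plakin repeats, which bind intermediate filaments, and some also bind actin and microtubules. In the epidermis desmoplakin anchors keratin filaments at desmosomes, while plectin (Plec) and the epithelial form of dystonin (Dst, also called BPAG1) anchor them at hemidesmosomes, the adhesions to the basement membrane. Macf1 and the long forms of Dst are spectraplakins, which join actin to microtubules. Envoplakin (Evpl) and periplakin (Ppl) pair with each other and become part of the cornified envelope of the outer epidermis, and epiplakin (Eppk1) is built almost only of plakin repeats and binds keratins.

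Total counts were 8980013 to 23457548 per library, and the smallest plakin count in any library was 40, for Eppk1. The wounded total replicate 1 library stood apart, with counts for 13117 genes against 14393 to 16867 elsewhere, so values that rest on it are also given without it where a call or its size changes. All 6 keratinocyte markers were detected in every library, at a summed 9044 to 18778 CPM (counts scaled to a fixed library size, after TMM adjustment of the library sizes). Of 20 markers of fibroblasts, melanocytes, immune, endothelial and muscle cells, no list summed to more than 6.47 CPM in any library, and Dcn, Tyr, Tyrp1, Lyz2, Cd207 and Cdh5 had no count. The keratinocyte sum was higher in the cortical fraction (13174 to 13387 CPM) than in the total fraction (9044 to 10276 CPM) of unwounded cells, and its part in the plakin results was not tested. Krt5 and Krt14 made up most of it, and Sfn of the same list went the other way, with means of 945 CPM in the total and 593 CPM in the cortical fraction. In such bulk libraries, a change in the share of cells and a change of RNA per cell cannot be told apart.

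The sequences before the annotated starts are shown for Dsp and Dst, whose levels followed each other most closely (Pearson correlation of log2 CPM 0.982 over the 12 libraries). They are the 250 bases upstream of the RefSeq start on build GRCm38.p6, 5′ to 3′ on the strand of the gene, with matches to 4 motifs in capitals.

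Dsp, chr13:38151044-38151293, plus strand: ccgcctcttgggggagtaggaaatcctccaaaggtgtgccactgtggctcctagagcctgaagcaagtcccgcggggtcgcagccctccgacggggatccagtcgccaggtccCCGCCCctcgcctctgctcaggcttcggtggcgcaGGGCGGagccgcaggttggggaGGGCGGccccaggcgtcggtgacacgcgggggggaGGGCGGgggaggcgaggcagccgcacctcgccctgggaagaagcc

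Dst, first start, chr1:34011345-34011594, plus strand: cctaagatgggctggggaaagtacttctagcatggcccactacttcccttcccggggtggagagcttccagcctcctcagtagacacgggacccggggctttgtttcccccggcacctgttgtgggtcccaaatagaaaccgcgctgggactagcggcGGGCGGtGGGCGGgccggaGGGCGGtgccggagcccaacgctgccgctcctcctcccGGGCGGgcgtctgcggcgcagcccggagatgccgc

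Dst, second start, chr1:34160010-34160259, plus strand: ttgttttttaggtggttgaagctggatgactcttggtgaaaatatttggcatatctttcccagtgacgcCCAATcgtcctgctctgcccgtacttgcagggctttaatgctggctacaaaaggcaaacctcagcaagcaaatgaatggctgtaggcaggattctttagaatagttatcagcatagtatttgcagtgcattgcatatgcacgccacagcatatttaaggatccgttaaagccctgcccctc

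The motifs searched on both strands were the AP-1 site TGANTCA, the GC box GGGCGG, the TATA box TATAAA and the CCAAT box CCAAT. The Dsp window held 4 GC boxes, as did the window at the first Dst start, and the second Dst window held 1 CCAAT box. At least 1 GC box was in 32.7%, a CCAAT box in 33.8%, a TATA box in 12.4% and an AP-1 site in 6.75% of all 32851 windows of this size in the RefSeq table. The share of windows with 4 GC boxes was not counted. A window was held for 3 of the 7 genes, and the fourth one, for Macf1, had none of the motifs. No M21 transcript starts within 100 bases of the first Dst start. Within 100 bases of the second Dst start, GENCODE M21 places the starts of 3 coding transcripts, which encode 2639, 2987 and 5175 residues, against 7717 for the longest annotated Dst product. The transcript with 2987 residues is annotated as coding over all its 8961 bases. It may thus be an incomplete model, and 2987 need not be the size of a full product. Counts were given per gene, so reads of all Dst forms are summed.

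All 7 plakin genes are long, and their mRNAs differ in what a gene-level count can resolve. Dsp (ENSMUSG00000054889, chromosome 13, 38151294 to 38198577) encodes 2883 residues, and Plec (ENSMUSG00000022565, chromosome 15, 76170974 to 76232574) encodes 4691 in its longest form. Dst (ENSMUSG00000026131, chromosome 1, 33908225 to 34308661) has 20 annotated transcripts, and Macf1 (ENSMUSG00000028649, chromosome 4, 123349633 to 123684360) has 16 and encodes up to 7355 residues. Evpl (ENSMUSG00000034282, chromosome 11, 116220559 to 116238077) encodes 2035 residues and Ppl (ENSMUSG00000039457, chromosome 16, 5086291 to 5132421) encodes 1754. Eppk1 (ENSMUSG00000115388, chromosome 15, 76101481 to 76120195) encodes 3458 residues in 2 exons, and lies 50778 bases from Plec. These positions are those of the count table, on mm10 (GRCm38). Within Eppk1, 22.3% of all stretches of 100 bases occurred more than once in its own transcript, so its count depends on how reads with several placements were treated, which is not given in the sources used here. That share was 0% in each of the other 6 genes, and no stretch of 100 bases was shared between plakins. The libraries did not record strand. Gm26788, on the opposite strand inside Dst, had 1.00% to 1.77% of the Dst count. Parp10, on the same strand as Plec, overlaps one end of it and had 9.29% to 32.4% of the Plec count. BC024139, on the same strand as Eppk1, overlaps one end of it and had 3.33% to 50% of the Eppk1 count. These are counts of the whole neighbouring genes, not of the shared bases.

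Levels were compared between genes on the deposited FPKM scale (fragments per kilobase of gene length, scaled to library depth). In the unwounded total group Ppl was highest at 28.6 ± 2.98 FPKM (SD, n = 3, as for every mean here), followed by Dsp at 21.9 ± 2.42, Evpl at 16.5 ± 2.39 and Dst at 14.5 ± 1.87. Plec stood far lower at 2.19 ± 0.251 FPKM, above Macf1 at 1.34 ± 0.144 and Eppk1 at 0.479 ± 0.0633. Of these neighbours, only Evpl and Dst overlapped in their libraries. In the wounded cortical group the order was Dsp at 48.8 ± 1.00 FPKM, Dst at 46.7 ± 1.02, Evpl at 44.9 ± 4.07 and Ppl at 36.7 ± 1.32. The Evpl libraries (41.9 to 49.5 FPKM) overlapped those of both Dst and Dsp. The lower 3 genes kept their order (5.47 ± 0.326, 1.96 ± 0.439 and 0.735 ± 0.177). In the unwounded cortical group the neighbours among the upper 4 genes overlapped, from Ppl at 32.2 ± 1.87 to Evpl at 27.5 ± 1.06 FPKM. In the wounded total group Dsp at 37.9 ± 1.33 lay above Dst at 33.7 ± 2.54, and Ppl at 31.1 ± 11.4 overlapped both. This overlap came from wounded total replicate 1, where Ppl had 44.3 FPKM, above every Dsp and Dst library. In replicates 2 and 3 Ppl had 24.7 and 24.3 FPKM, below every Dsp and Dst library. The place of Dst depends on the length used: the deposited length of 41155 bases merges the exons of all forms, and per length of the longest coding transcript (23201 bases) Dst stood at 82.9 rather than 46.7 FPKM in the wounded cortical group and ranked first in 3 of the 4 groups. Among the 11502 tested protein-coding genes, Dsp lay at percentile 83.3 and Eppk1 at percentile 13.8 of FPKM in the unwounded total group.

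**Figure D1:**
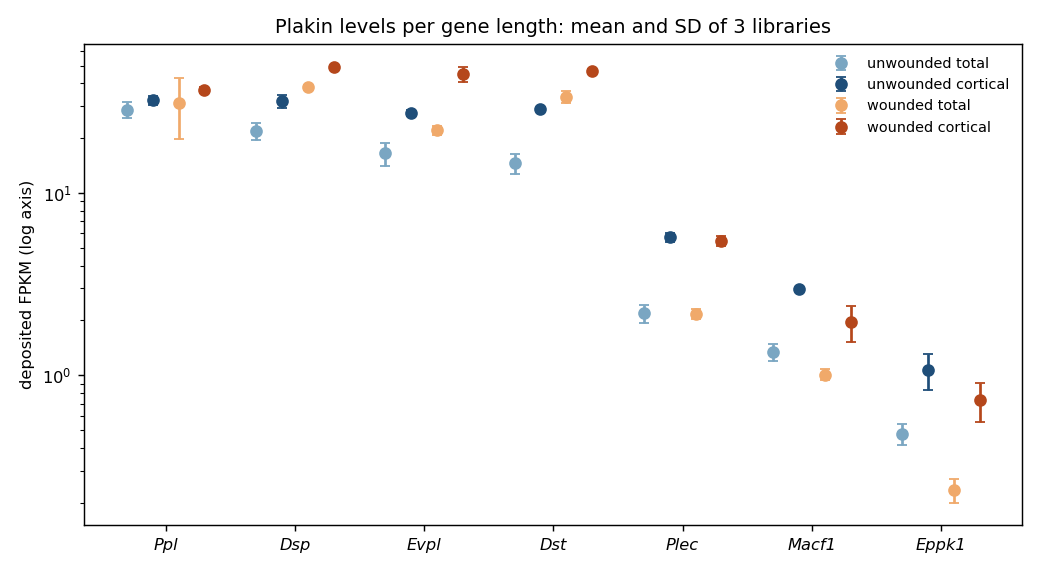
Deposited FPKM of the 7 plakin genes on a log axis, with points for the mean and bars for the SD of 3 libraries in each of the 4 groups. Ppl, Dsp, Evpl and Dst form an upper set at 14.5 FPKM or more, and Plec, Macf1 and Eppk1 lie at 5.73 FPKM or less.

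Without wounding, the plakin genes summed to 0.118% ± 0.0181 of the counts of total and 0.230% ± 0.00363 of the counts of cortical libraries. After wounding the sums were 0.199% ± 0.0417 and 0.332% ± 0.00257, and the first was 0.175% ± 0.00898 (n = 2) without wounded total replicate 1. The libraries of each cortical group lay above those of its total group. Dst alone gave 49.3% to 64.6% of the plakin counts of a library.

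Setting cortical against total libraries asks which translated mRNAs were enriched near the desmoplakin fusion. In unwounded cells 6 of the 7 plakin genes were higher in the cortical fraction, by 1.43-fold (Dsp) to 2.58-fold (Plec), and Ppl was the 1 that did not pass. Among all genes tested 6.62% were called higher, and 14.1% of the 3267 genes at least as long as Evpl, the shortest plakin gene at 6384 bases. The median log2 fold change was 0.96 over the 7 plakins, 0.20 over those long genes and 0.00 over all genes. In 6 plakin genes all 3 cortical libraries lay above all 3 total libraries, which held for 17.1% of all genes. In wounded cells the same 6 genes were called (background 7.62%, and 17.5% of the long genes), with a median of 0.99 against 0.26 over the long genes and 0.04 over all genes, and the groups of those 6 did not overlap (background 16.2%). Scaling by library size alone moved the median of all genes to 0.19 and 0.25 in these comparisons, and the 6 calls held in both under each scaling tried.

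**Figure D2:**
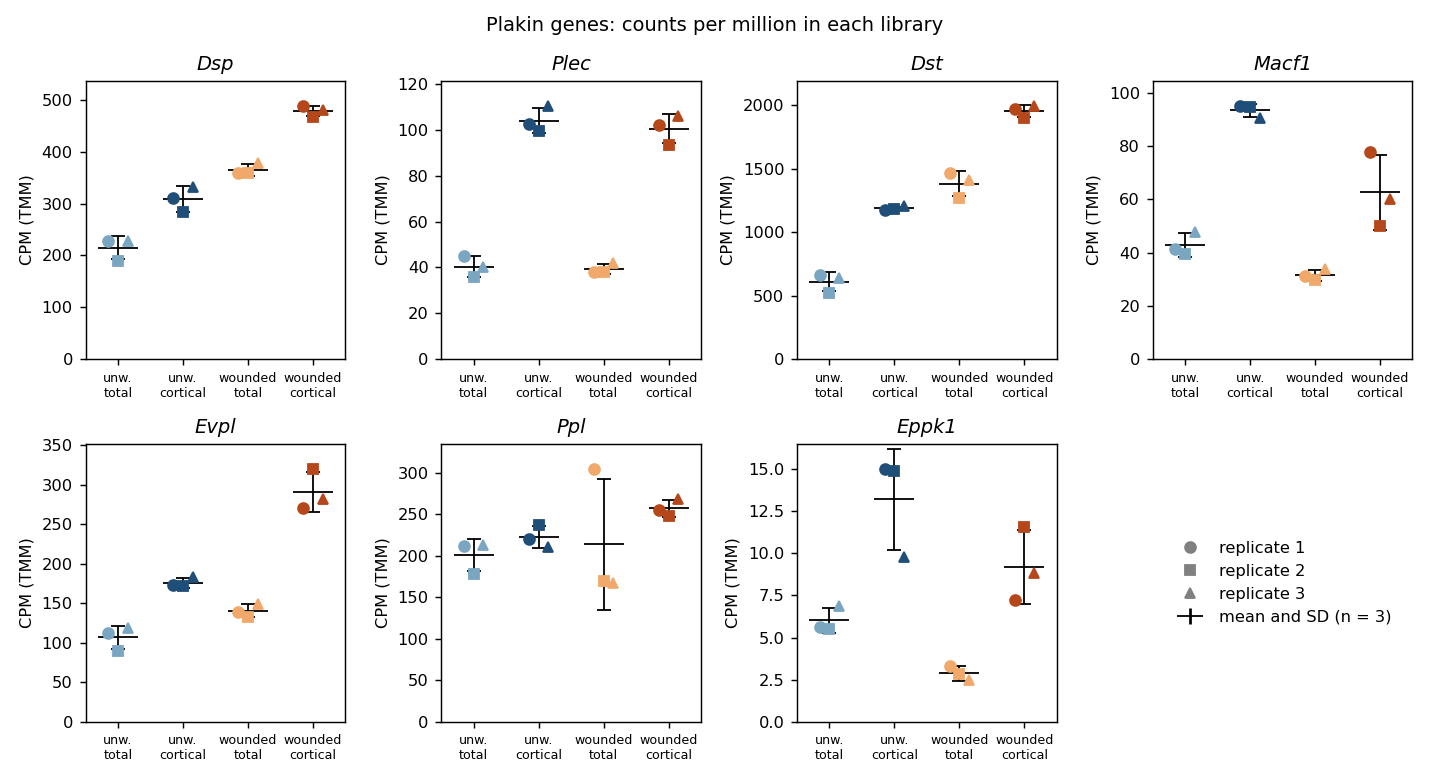
CPM of each plakin gene in the 12 libraries, on linear axes that start at 0, with a symbol for each replicate number and a bar for the mean and SD of the 3 libraries of a group. Cortical libraries lie above the total libraries of the same wound state for every gene except Ppl, which overlaps in both states and where wounded total replicate 1 reached 304 CPM.

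Dsp, the gene of the desmosomal anchor and of the bait, had 228, 189 and 228 CPM in unwounded total replicates 1 to 3 and 310, 283 and 332 CPM in the unwounded cortical libraries. In wounded cells it had 359, 359 and 379 CPM in the total and 488, 468 and 481 CPM in the cortical libraries. The 4 groups did not overlap, with unwounded total lowest, then unwounded cortical, then wounded total, and wounded cortical highest. The share of all genes whose 4 groups separate was not counted, which holds for every gene below as well. The cortical-to-total log2 fold change was 0.52 (SE 0.10, adjusted p = 0.00348) in unwounded and 0.39 (SE 0.10, adjusted p = 0.0180) in wounded cells. The second of these did not pass without wounded total replicate 2, wounded cortical replicate 1 or wounded cortical replicate 3 (adjusted p 0.0584 to 0.0730). Dsp had the smallest change among the 6 called genes in both states, and whether transcripts of the fusion were counted under Dsp cannot be told from counts per gene.

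Plec, which anchors keratins to the integrin of hemidesmosomes, had the largest cortical fold in unwounded cells. It had 44.8, 35.9 and 40.4 CPM in the unwounded total and 103, 99.4 and 110 CPM in the unwounded cortical libraries. The wounded total libraries had 37.9, 38.0 and 41.7 CPM and the wounded cortical libraries 102, 93.6 and 106 CPM. The cortical libraries were all above the total libraries, and within each fraction the wounded and unwounded libraries overlapped. The log2 fold change was 1.37 (SE 0.11, adjusted p = 5.30e-07) in unwounded and 1.36 (SE 0.11, adjusted p = 1.81e-06) in wounded cells, at percentiles 98.3 and 96.9 of all genes tested. The difference between both folds was -0.01 (95% interval -0.33 to 0.31).

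Dst, the most counted plakin gene, had 663, 524 and 641 CPM in the unwounded total and 1177, 1182 and 1204 CPM in the unwounded cortical libraries. In wounded cells it had 1466, 1271 and 1412 CPM in the total and 1970.5, 1899.8 and 1992 CPM in the cortical libraries. As for Dsp, the 4 groups did not overlap and stood in the same order. The cortical fold was 1.95 (log2 0.96, SE 0.11, adjusted p = 4.29e-05) in unwounded and 1.41 (log2 0.50, SE 0.11, adjusted p = 0.00564) in wounded cells.

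Macf1, which guides microtubules along actin, was at 41.3, 39.5 and 47.8 CPM in the unwounded total and at 94.9, 94.6 and 90.6 CPM in the unwounded cortical libraries. The wounded total libraries had 31.1, 29.7 and 33.8 CPM and the wounded cortical libraries 77.7, 50 and 60.2 CPM. Both cortical groups lay above both total groups, and the wounded cortical libraries spread the most. The log2 fold change was 1.12 (SE 0.14, adjusted p = 1.24e-04) in unwounded and 0.99 (SE 0.14, adjusted p = 4.92e-04) in wounded cells.

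The cornified envelope pair differed. Evpl had 112, 90.1 and 118 CPM in the unwounded total, 174, 172 and 183 in the unwounded cortical, 140, 133 and 149 in the wounded total and 271, 320 and 282 CPM in the wounded cortical libraries, with no overlap between any groups. Its log2 fold change was 0.72 (SE 0.11, adjusted p = 7.02e-04) in unwounded and 1.05 (SE 0.11, adjusted p = 6.58e-05) in wounded cells. Ppl, the partner of envoplakin, had 211, 178 and 213 CPM in the unwounded total and 220, 237 and 211 CPM in the unwounded cortical libraries, which overlapped. Its wounded cortical libraries had 255, 248 and 268 CPM, and of its wounded total libraries replicates 2 and 3 had 170 and 167 CPM while replicate 1 had 304. The Ppl log2 fold change was 0.15 (95% interval -0.22 to 0.52, adjusted p = 0.687) in unwounded and 0.27 (-0.10 to 0.63, adjusted p = 0.347) in wounded cells. Without wounded total replicate 1 the wounded value was 0.61 (SE 0.10, adjusted p = 4.41e-05), so that 7 of 7 plakin genes were then called higher in the cortical fraction of wounded cells, against 12.1% of all genes.

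Eppk1, the lowest of the 7, had 5.62, 5.53 and 6.89 CPM in the unwounded total and 15.0, 14.9 and 9.76 CPM in the unwounded cortical libraries. The wounded total libraries had 3.32, 2.86 and 2.45 CPM and the wounded cortical libraries 7.21, 11.6 and 8.82 CPM. The total and cortical groups did not overlap in either state. The log2 fold change was 1.14 (SE 0.26, adjusted p = 0.00719) in unwounded and 1.67 (SE 0.27, adjusted p = 9.82e-04) in wounded cells, the largest among the 7 in wounded cells and with the widest intervals (1.10 to 2.24).

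Because cortical enrichment rose with gene length across all genes, each plakin gene was set against the trend at its own length. In unwounded cells 7 of 7 genes lay on or above that trend, by 0.01 (Ppl) to 1.06 (Plec) log2 units. In wounded cells 6 did, by 0.08 (Ppl) to 1.35 (Eppk1), and Dst, whose trend value was 0.55, lay 0.05 below it. The share of all genes that lay above the trend was not counted, so these counts have no background beside them. With the length trend removed from each library, the 6 genes remained called in unwounded cells (adjusted p 9.68e-06 to 0.0341), when 5.21% of all genes were called higher. In wounded cells, when 3.48% of all genes were called higher, Plec (0.95), Macf1 (0.48), Evpl (0.88) and Eppk1 (1.35) remained called, while Dsp stood at 0.12 (adjusted p = 0.472) and Dst at -0.05 (adjusted p = 0.762). The deposited length of Dst counts the exons of all its forms, and which forms were present was not tested.

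**Figure D3:**
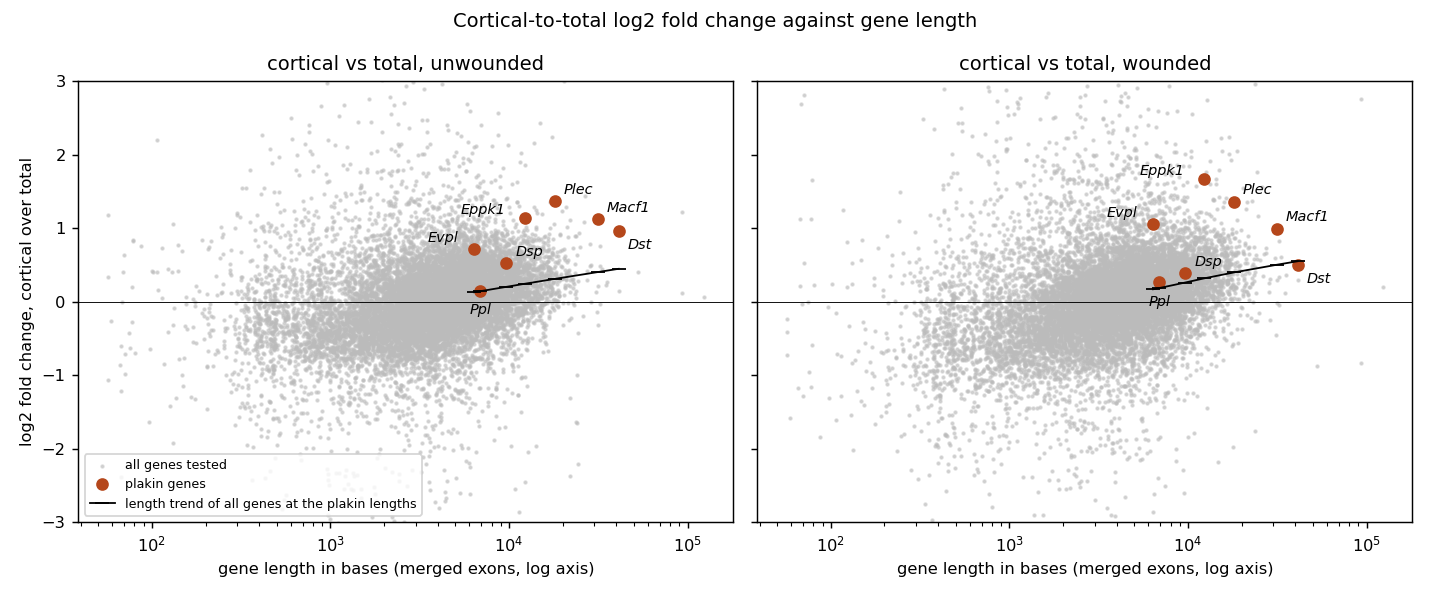
Log2 fold change of the cortical over the total fraction against gene length (merged exons, log axis) in unwounded and wounded cells, with grey points for all genes tested, red points for the plakin genes and a black line for the trend of all genes at the plakin lengths. Plec stands 1.06 and 0.96 above the line and Dst 0.52 above it in unwounded cells but on it in wounded cells. The axis leaves out 70 and 127 genes beyond 3 in either direction.

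With wounding, plakin genes were called in both directions. In the total fraction Dst rose 2.27-fold, Dsp 1.70-fold and Evpl 1.31-fold, Macf1 fell to 0.736 and Eppk1 to 0.480 of the unwounded level, and Plec and Ppl did not pass. That is 3 of 7 higher and 2 of 7 lower, where 8.39% and 7.20% of all genes tested were higher and lower. Neither lower call was made with limma on log2(FPKM + 1) or log2(FPKM + 0.1), with only the groups compared, or without unwounded total replicate 3 or wounded total replicate 3. The groups of these 5 genes did not overlap, as in 14.5% of all genes in the higher and 17.6% in the lower direction. The median log2 fold change was 0.09 over the plakins and -0.03 over all genes. The summed keratinocyte markers were also higher after wounding, at 15096 to 17942 against 9044 to 10276 CPM in the total fraction, while Sfn averaged 761 against 945 CPM, and their part in the wounding results was not tested. This comparison shares the unwounded total libraries with the comparison of fractions in unwounded cells and the wounded total libraries with that in wounded cells.

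The Dst rise in the total fraction was 1.18 on the log2 scale (SE 0.11, adjusted p = 4.57e-06) and that of Dsp 0.76 (SE 0.10, adjusted p = 1.95e-04). For these genes the call held when any library was left out. The Evpl change was 0.39 (SE 0.11, adjusted p = 0.0257), which did not pass without unwounded total replicate 1, unwounded total replicate 2 or wounded total replicate 3 (adjusted p 0.0623 to 0.145). The Macf1 change was -0.44 (SE 0.14, adjusted p = 0.0409). It lost its call in 9 of 12 leave-one-out fits (adjusted p 0.0518 to 0.159), those without any unwounded library, wounded total replicate 2 or 3, or wounded cortical replicate 3. Over the 25 alternatives described at the end this call was lost in 15. These included scaling by RLE size factors (edgeR, adjusted p = 0.0567) and the length trend removed (edgeR, adjusted p = 0.166). The Eppk1 change was -1.06 (SE 0.27, adjusted p = 0.0143), and did not pass without unwounded total replicate 3 or wounded total replicate 3 (adjusted p 0.0555 and 0.0590). Plec stood at -0.04 (95% interval -0.27 to 0.19, adjusted p = 0.850). Ppl stood at 0.09 (-0.28 to 0.46, adjusted p = 0.796), and at -0.26 (SE 0.10, adjusted p = 0.0547) without wounded total replicate 1, while none of the 5 calls was lost without that library.

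In the cortical fraction 3 of the 7 rose with wounding and 1 fell, where 1.60% of all genes were higher and 0.884% lower. That background was larger without wounded total replicate 1, which is not in this comparison but enters the shared estimate of spread. The shares were then 5.47% higher and 3.6% lower, and the same 4 genes passed in edgeR. With only the groups compared, 1423 genes were called, against 337 in the main fit. Dst rose by 0.72 (SE 0.11, adjusted p = 0.00214), Evpl by 0.72 (SE 0.11, adjusted p = 0.00273) and Dsp by 0.63 (SE 0.10, adjusted p = 0.00372) on the log2 scale, and Macf1 fell by 0.57 (SE 0.14, adjusted p = 0.0344). Eppk1 stood at -0.53 (95% interval -1.07 to 0.01, adjusted p = 0.295), Ppl at 0.21 (-0.16 to 0.57, adjusted p = 0.608) and Plec at -0.05 (-0.27 to 0.17, adjusted p = 0.872). The groups did not overlap for the 4 called genes and for Ppl, against 15.4% of all genes in the higher and 11.5% in the lower direction. The Macf1 call was lost in 5 of 12 leave-one-out fits, those without any 1 of the unwounded cortical libraries or without wounded cortical replicate 2 or 3 (adjusted p 0.0962 to 0.155). Over the 25 alternatives described at the end the call was lost in 9. These included scaling by library size alone (edgeR, adjusted p = 0.0510) and limma on log2(FPKM + 1) (adjusted p = 0.0907) or log2(FPKM + 0.1) (adjusted p = 0.134).

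**Figure D4:**
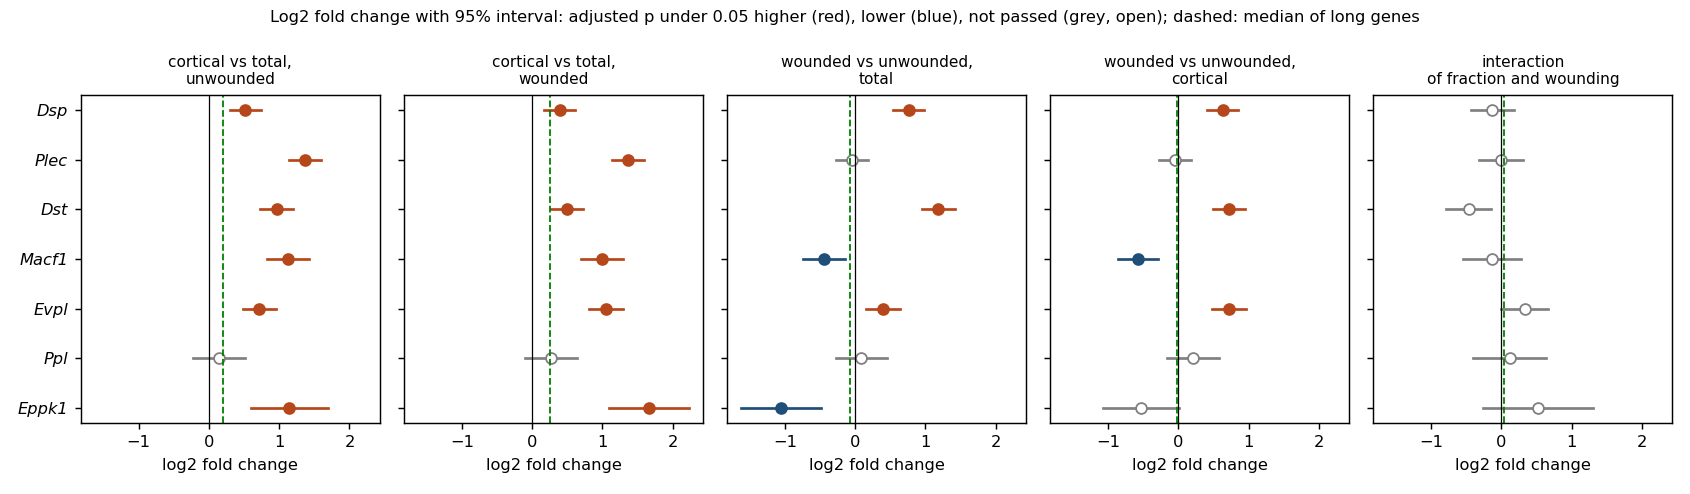
Log2 fold change of each plakin gene with its 95% interval in the 5 comparisons, red where called higher, blue where called lower and grey with an open circle where not passed, beside a dashed line at the median of genes of 6384 bases or more. Cortical enrichment is to the right of that line for the 6 called genes, while wounding moves Dst, Dsp and Evpl to the right and Macf1 to the left in both fractions.

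Whether wounding changed the cortical-to-total ratio itself was tested with the interaction of fraction and wounding. Among the plakin genes 0 of 7 passed (edgeR, adjusted p under 0.05), where 0.125% of all genes did, and DESeq2 called 0. An unadjusted p under 0.05 was found for 1 of 7, and for 9.05% of all genes. That 1 was Dst, with an interaction of -0.46 (SE 0.15, unadjusted p = 0.00745, adjusted p = 0.357). Without wounded total replicate 1 it was -0.42 (SE 0.13, adjusted p = 0.0722), and that of Ppl was 0.46 (SE 0.13, adjusted p = 0.0514). The Evpl interaction was 0.33 (95% interval -0.01 to 0.67, adjusted p = 0.560). The intervals of the others were -0.44 to 0.18 for Dsp, -0.33 to 0.31 for Plec, -0.55 to 0.28 for Macf1, -0.40 to 0.64 for Ppl and -0.25 to 1.31 for Eppk1.

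Over the 12 libraries the plakin genes fell into unlike profiles, described here by Pearson correlations of log2 CPM, which share library and group and carry no test. Dsp and Dst were closest to each other (0.982), Macf1 followed Plec (0.884) and Eppk1 (0.878), and Dsp with Eppk1 was the weakest pair (0.02). Among 9317 other genes averaging 100 counts or more per library, the nearest to Dst were Krt5, a basal keratin, and Lamb3, a laminin chain (both 0.985). The nearest to Dsp were Dst and 1700020L24Rik (0.975), and to Plec they were Ppp1r9b, which encodes the actin-binding spinophilin (0.990), and Aff4 (0.982). Evpl was nearest to the non-muscle myosin heavy chains Myh9 (0.980) and Myh14 (0.973). Macf1 was nearest to Cpd (0.978) and Fam160a2 (0.966), Ppl to Dock6 (0.935) and Mapk6 (0.931), and Eppk1 to AI506816 (0.960) and Rhob (0.955).

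Genes whose products meet the plakins were counted in lists written from general knowledge. In edgeR, 6.62% of all genes were called higher and 7.59% lower in the cortical fraction of unwounded cells (median log2 fold change 0.00), and 7.62% and 8.03% in that of wounded cells (median 0.04). Among genes at least as long as Evpl, 14.1% and 17.5% were called higher in the cortical fraction of unwounded and wounded cells. The partner lists were not adjusted for gene length, so the part of length in their counts was not tested. With wounding in the total fraction 8.39% rose and 7.20% fell (median -0.03). Without wounded total replicate 1 more genes passed in these comparisons: 10.1% higher and 12.3% lower between the fractions of unwounded cells, 12.1% and 12.6% between those of wounded cells, and 13.4% and 11.5% with wounding in the total fraction.

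Of 12 tested desmosome genes, the cadherins and plaque proteins of the adhesion that desmoplakin joins, 2 were higher and 0 lower in the cortical fraction of unwounded cells (median 0.32), against 6.62% and 7.59% of all genes. They were Jup, encoding plakoglobin, at 0.75 (adjusted p = 2.40e-04) and Dsg1b at 0.61 (adjusted p = 0.0489), and 7 passed without wounded total replicate 1. In wounded cells 3 were higher and 0 lower (median 0.29), and 5 were higher without that library. With wounding 4 of 12 rose in the total fraction (median 0.31), led by Jup at 0.50 (adjusted p = 0.00344) and Pkp1 at 0.35 (adjusted p = 0.0235). Without that library 5 rose and 3 fell.

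Of 7 genes of hemidesmosomes and their laminin ligand, 4 were higher and 0 lower in the cortical fraction of unwounded cells (median 0.50, all genes 6.62% higher), led by Lamb3 at 0.88 (adjusted p = 2.40e-04) and Col17a1 at 0.65 (adjusted p = 0.00152). In wounded cells 4 were higher (median 0.35, all genes 7.62%). With wounding 4 of 7 rose in the total fraction (median 0.40, all genes 8.39%), with Lamb3 at 1.27 (adjusted p = 6.14e-06) and Col17a1 at 0.61 (adjusted p = 0.00197). Leaving out wounded total replicate 1, the counts higher were 6, 6 and 4.

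Of 13 tested intermediate filament genes, the filaments that plakins bind, 6 were higher and 1 lower in the cortical fraction of unwounded cells (median 0.48), against 6.62% and 7.59% of all genes. Krt78 had 1.71 (adjusted p = 9.93e-04) and Krt7 -1.49 (adjusted p = 0.0398). Between the fractions of wounded cells 0 of 13 passed in edgeR (median 0.01, all genes 7.62% higher and 8.03% lower), 1 of 13 had an unadjusted p under 0.05, DESeq2 called 1, and without wounded total replicate 1 there were 1 higher and 2 lower. With wounding 7 of 13 rose in the total fraction (median 0.65, all genes 8.39%), led by Krt78 at 3.19 (adjusted p = 2.62e-06) and Krt6b at 2.80 (adjusted p = 1.79e-07), and 9 rose and 2 fell without that library. Here 3 genes passed the interaction test, where 0.125% of all genes did. All 3 were lower, Krt78 at -2.11, Krt6b at -1.30 and Krt16 at -0.89 (adjusted p 0.0325 to 0.0396), of which Krt16 was picked after its values were seen. Without wounded total replicate 1 they stood at -1.84, -1.46 and -1.01 (adjusted p 2.85e-05 to 0.00652). In that fit 5 of the 13 were lower and 0 higher in the interaction, against 1.88% and 1.06% of all genes.

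Of 17 microtubule and spectraplakin partner genes, 6 were higher and 0 lower in the cortical fraction of unwounded cells (median 0.28, all genes 6.62% and 7.59%), with Lrp6, a Wnt co-receptor, at 0.76 (adjusted p = 0.00205) and Camsap2, which binds microtubule minus ends, at 0.54 (adjusted p = 0.0344). In wounded cells 7 were higher (median 0.40, all genes 7.62%). With wounding 1 rose and 4 fell in the total fraction (median -0.05, all genes 8.39% and 7.20%), led by Clasp2 at -0.81 (adjusted p = 0.0116) and Apc at -0.63 (adjusted p = 0.0172), which bind microtubule plus ends. Without wounded total replicate 1 the counts were 6 higher and 2 lower, 8 and 1, and 2 and 5.

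Of 12 tested cornified envelope genes and partners, 0 were higher and 4 lower in the cortical fraction of unwounded cells (median -0.15, all genes 6.62% and 7.59%), with S100a11 at -0.82 (adjusted p = 0.00299) and S100a10 at -0.77 (adjusted p = 0.00138). Their deposited lengths were 511 and 1212 bases, against at least 6384 bases for the plakins. In wounded cells 1 was higher and 4 lower (median -0.50, all genes 7.62% and 8.03%). With wounding 3 of 12 rose and 1 fell in the total fraction (median 0.10, all genes 8.39% and 7.20%). Sprr1a rose by 1.60 (adjusted p = 3.28e-04) and Ivl, which encodes involucrin, by 0.72 (adjusted p = 0.0465), but Ivl stood at 0.38 (adjusted p = 0.200) without wounded total replicate 1. The counts without that library were 0 higher and 5 lower, 1 and 5, and 3 and 1, and the median with wounding was 0.36.

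Of 14 tested spectrin repeat genes and other actin linkers, 4 were higher and 1 lower in the cortical fraction of unwounded cells (median 0.32, all genes 6.62% and 7.59%), with Syne2, a nesprin of 26726 bases, at 1.43 (adjusted p = 0.00332). In wounded cells 5 were higher and 1 lower (median 0.49, all genes 7.62% and 8.03%). With wounding 2 rose and 1 fell in the total fraction (median 0.31, all genes 8.39% and 7.20%), where Actn4, an actin cross-linker, rose by 0.86 (adjusted p = 3.03e-05) and Syne3 fell by 0.68 (adjusted p = 0.0356). The counts without wounded total replicate 1 were 6 and 1, 9 and 1, and 2 and 1, and the median with wounding was 0.01.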

How the data were processed

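Fragment counts per gene and FPKM were deposited by the authors as 2 tables with 1 column per library, and 0 per-sample columns were left unused. Per the submitters' processing notes CASAVA, HISAT2 and the mm10 build were used. The counting tool and annotation release are not given in the sources used here. Groups came from the sample titles. Per the labels' protocols, RNA was selected on poly-T beads and the libraries were non-directional. Replicates are labelled as biological, with no more detail, so p-values measure the spread between these libraries.

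Counts were fitted in R 4.3.3 with edgeR 4.0.16: filterByExpr, TMM factors (0.831 to 1.10), 1 quasi-likelihood model with group means over all 12 libraries, and two-sided F tests adjusted by Benjamini-Hochberg over 13571 genes at 0.05. Log2 CPM used a prior count of 2. SE and 95% intervals belong to the log2 fold change. The length trend was a loess fit (span 0.5) on log2 gene length. Alternatives used DESeq2 1.42.0 and limma 3.58.1. Fits were tested on simulated data. Figures used python 3.11.15 and matplotlib 3.10.9. Gene models came from GENCODE M21 (GRCm38), which gave all 7 genes the deposited positions.

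Named genes were the 7 plakins, up to 2 called genes with the largest change per partner list in the unwounded fraction comparison and in the wounding comparison of the total fraction, and the 2 genes of most similar profile per plakin. A gene that this rule names is not reported here. Members, lists and tests were chosen with earlier results of these data known. Partner lists and the plakin share without wounded total replicate 1 were added after seeing the data. Untested list genes were Dsc1, Krt18, Vim, Flg and Syne1. No shared dish is stated for libraries of 1 number, so numbers were not taken to pair them, and the number as a block was an alternative. Deviations from group means correlated at -0.0532 to 0.0252 between same-numbered total and cortical libraries. Between wounded and unwounded total libraries they correlated at 0.190, 0.273 and -0.0269 for numbers 1 to 3. Libraries of unlike number were not compared in this way, so a batch shared by number was not tested. Libraries of a group differed beyond sampling noise (chi-square per degree of freedom at least 7.29), so each counted as 1 sample.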

Additional observations from a re-analysis of the deposited data

How the results depend on the processing

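Each plakin result was recomputed under 25 alternatives: 12 that leave out 1 library and 13 others. Of 868 values 806 kept direction and side of the threshold, 40 lost the call, 4 gained it and 18 changed sign. The count of 6 called in unwounded cells held in all 25. In wounded cells it was 3 with the length trend removed and the replicate block together, 4 with the trend alone, and 5 to 7 with a library left out. The wounding count of 5 in the total fraction held in 8 of the 25 and ran from 2 to 6. The count was 3 with limma on log2(FPKM + 1) or log2(FPKM + 0.1). With only the groups compared, where fewer samples set the spread, it was 2, and with a library left out 2 to 5. In the cortical fraction it was 3 to 5 throughout. The interaction count was 1 with voom quality weights (Ppl, 0.46, adjusted p = 0.0278).

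The sign changed in genes that had not passed, except Dst in wounded cells with the length trend removed (-0.054, and -0.054 with the block as well). Plec with wounding in the total fraction was 0.079 with the trend removed and 0.077 with the block as well. The voom weights gave Ppl -0.25 (adjusted p = 0.0204) for wounding in the total fraction and Plec 0.086 for the interaction, which was 0.027 by library size alone. With 1 library left out, Plec ran from -0.13 to 0.038 (total) and -0.086 to 0.0012 (cortical) with wounding and -0.11 to 0.060 for the interaction, Ppl from -0.26 to 0.24 with wounding in the total fraction and -0.055 to 0.46 for the interaction, and Macf1 from -0.32 to 0.0073 for the interaction. The causes were not tested.

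With the replicate number as a block alone, the counts of called plakin genes stayed at 6, 6, 5, 4 and 0. Over all genes, calls in the order of the comparisons were 1928, 2124, 2116, 337 and 17. They ran from 949 to 3708, 970 to 4441, 1128 to 5206, 108 to 1423 and 4 to 855, with the lowest counts without unwounded total replicate 2, with only the groups compared, and without unwounded total replicate 1, wounded cortical replicate 1 and wounded cortical replicate 3. They were 3151, 3475, 3502, 1276 and 413 without wounded total replicate 1. CPM by library size alone was 0.907 to 1.09 times the TMM value, and 14 of 28 group means moved by at least the SD of their group. Eppk1, at 40 to 384 counts, had the least depth.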
